A study of Mus musculus with 37 samples.

Results

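The comparison described here sets every irradiated mammary gland of week 1 against the sham-irradiated glands of the same week, and asks which genes moved alike whichever radiation was given. It used 12 of the 37 arrays of the study: 9 irradiated arrays (3 after 100 cGy of gamma rays, 3 after 30 cGy and 3 after 10 cGy of silicon ions, Si, at 350 MeV/amu) and 3 sham arrays. Arrays were assigned by their titles, so no measured value chose them. All mice were BALB/c females, 10 weeks old when exposed or sham-exposed, and their glands were taken 1 week later at the irradiation facility. In every mouse, sham or irradiated, one inguinal gland had been cleared earlier, and the array measured the intact gland of the other side. Glands of weeks 4 and 12, used here only beside the week 1 values, were taken after the mice had been moved back to their first animal facility, so week and place cannot be told apart. The labels list the replicates as separate samples without naming a mouse for each, and p-values therefore reflect only how far these samples spread, which could be technical.

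Gamma rays ionize sparsely and break DNA at scattered points, whereas silicon ions deposit energy densely along a track. Both activate p53, the transcription factor that halts the cell cycle through Cdkn1a (p21) and induces other target genes. The mammary gland is a mixture of fat, ducts, vessels, fibroblasts, immune cells and a lymph node, so a change in a whole gland can come from any of them. Fewer cells of a type and less RNA per cell cannot be told apart in such samples.

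Values are log2 expression levels, so a difference of 1 is a 2-fold change. Of 18820 genes with a probe set of their own, 13174 passed the filter on low levels and were tested. Correlations between any 2 arrays lay between 0.948 and 0.987, with a median of 0.978. Markers of luminal epithelium averaged 8.51 to 9.94 in the 12 arrays and white adipocyte markers 11.15 to 11.53, so both defining tissues of the gland were present. Sham replicate 3 stood apart. Its T cell markers averaged 8.47 against 6.52 and 5.07 in sham replicates 1 and 2, its B cell markers 9.61 against 7.16 and 5.48, and its luminal markers 8.51 against 9.94 and 9.92. The irradiated arrays spread as widely in T cell markers, from 4.49 to 8.13, and less widely in luminal markers, from 8.84 to 9.42. With only 3 sham arrays, each result below is therefore also given without sham replicate 3 where that array decides it.

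At week 1, 10 genes were higher in irradiated than in sham glands at an adjusted p under 0.05 (limma, Benjamini-Hochberg over all genes tested; 0.0759% of 13174), and 0 were lower. They were Ace, Tinagl1, Gsta3, Rarres1, Zbtb16, Twist2, Clmp, Dpp7, Pid1 and Fam102b, and they rose 1.30-fold (Clmp) to 2.34-fold (Zbtb16). All 10 lay above sham in the mean of each irradiation. For 9 of them the difference also had an unadjusted p under 0.05 in each irradiation taken alone, a pattern that 116 of all genes tested (0.881%) showed upward and 32 (0.243%) downward. Zbtb16 missed it after 30 cGy Si (unadjusted p of 0.10). In 8 of the 10, all but Gsta3 and Zbtb16, every irradiated array lay above every sham array, as it did in 321 of all genes tested (2.44%), against 81 (0.615%) in which every irradiated array lay below. The 3 irradiations share the same sham arrays, so a low or high sham mean enters all 3 differences at once. The excess of higher genes rested on sham replicate 3: at an unadjusted p under 0.05, 909 genes were higher and 408 lower with it, against 622 and 681 without it, when limma called 0. Taken alone, gamma rays gave 3 called genes (0.0228%), 30 cGy Si 3 (0.0228%) and 10 cGy Si 11 (0.0835%), all higher.

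**Figure D1:**
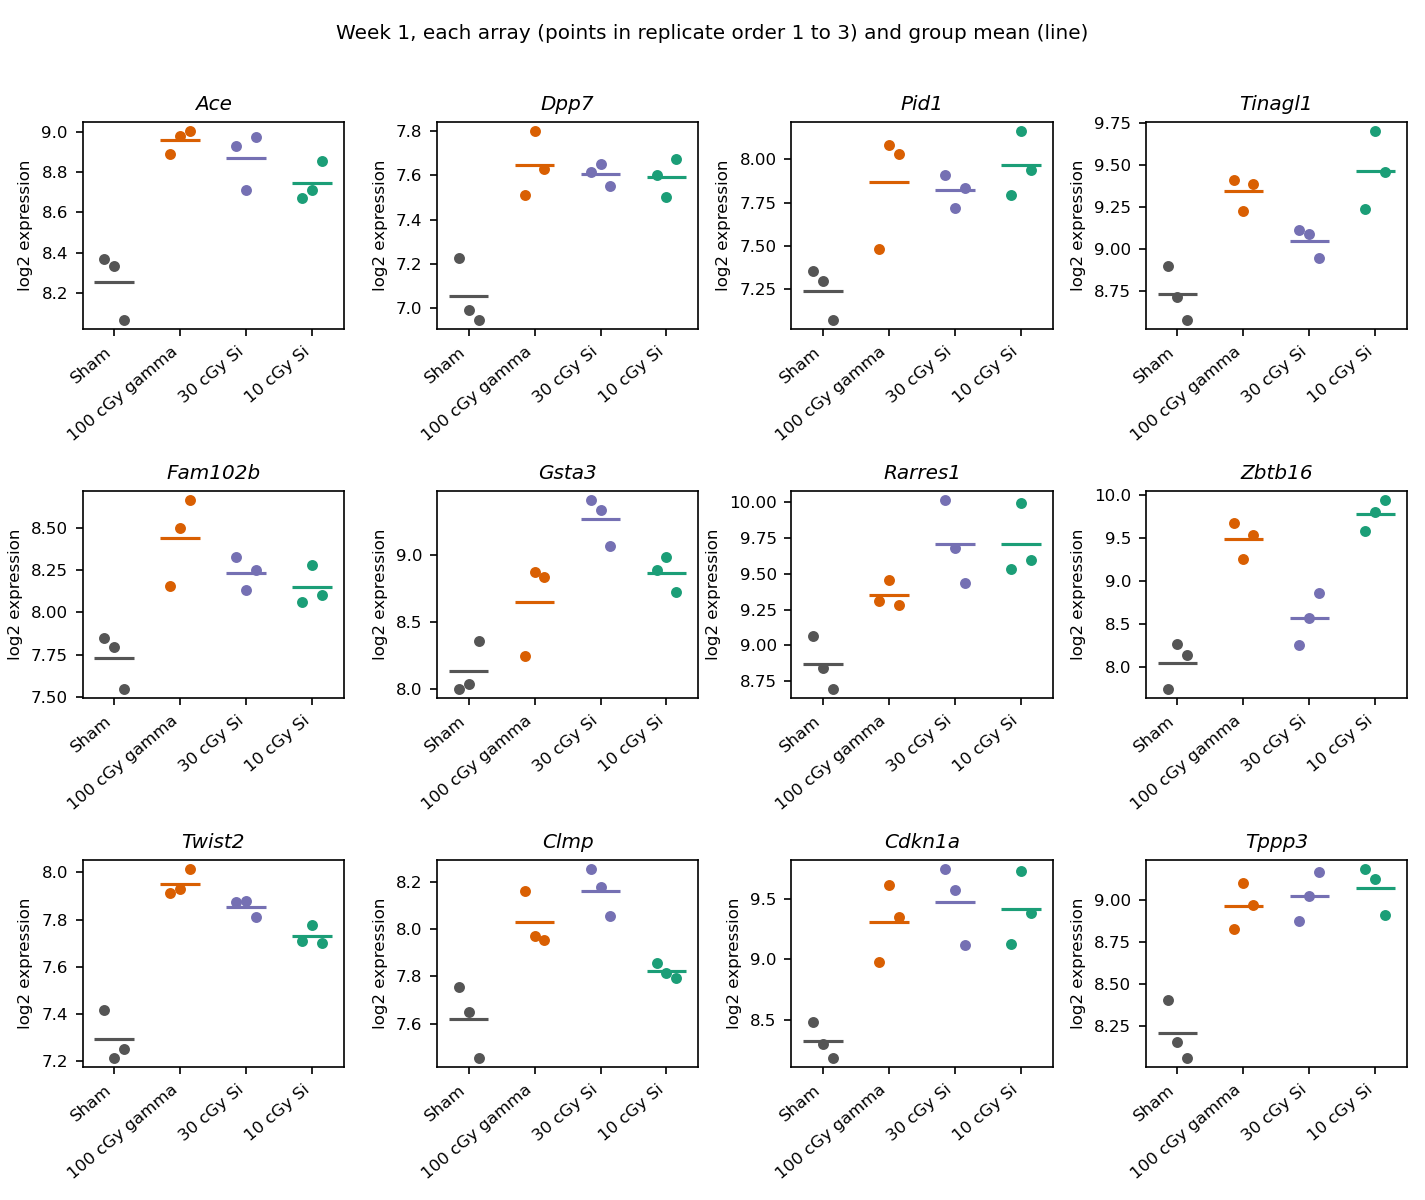
Log2 expression (vertical axis) of the 10 called genes and of Cdkn1a and Tppp3 in the 12 arrays of week 1, by treatment (horizontal axis); points are arrays and lines are group means. Irradiated points lie above all sham points in every panel but those of Gsta3 and Zbtb16, where 1 irradiated array each did not exceed the highest sham array.

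Ace, which had the smallest p, encodes the angiotensin-converting enzyme of endothelial surfaces. It read 8.37, 8.34 and 8.06 in sham replicates 1, 2 and 3, and 8.67 to 9.00 (median 8.89) in the irradiated arrays. The groups were 0.30 apart at their nearest arrays, and Ace rose by 0.60 ± 0.10 (SE; 1.52-fold, limma adjusted p of 0.0325), with differences of 0.70 after gamma rays, 0.62 after 30 cGy Si and 0.49 after 10 cGy Si. Tinagl1, a secreted glycoprotein of basement membranes, read 8.90, 8.72 and 8.58 in sham and 8.95 to 9.70 (median 9.24) after irradiation. It rose by 0.55 ± 0.10 (adjusted p of 0.0364), with the smallest separate difference, 0.32, after 30 cGy Si. Of 22 genes of endothelium and vascular tone, these 2 were called and 4 more (Flt1, Sox17, Tek and Ednrb) were higher at an unadjusted p under 0.05, where 6.90% of all genes were higher and 3.10% lower. The list was chosen with earlier results of these data known, so its counts are a description only. Without sham replicate 3, 0 of the 22 were called and 3 were higher, where 4.72% of all genes were. The list's median difference was 0.09 against 0.01 over all genes, and the 5 general endothelial markers averaged 8.84 to 8.90 in sham and 8.81 to 9.13 in irradiated arrays. Edn1, the vasoconstrictor endothelin 1, was not a member of the list of 22. It read 6.14, 5.98 and 5.36 in sham and 6.48 to 7.02 (median 6.62) after irradiation. Its arrays did not overlap, but its difference of 0.87 ± 0.22 had an adjusted p of 0.180.

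A stretch of the Ace promoter is shown because it holds the motif that most of the called genes shared. It is the 120 bases before one annotated start (RefSeq, GRCm38.p6, chr11:105967828-105967947, plus strand), with the GC box letters GGGCGG in capitals.
Ace promoter: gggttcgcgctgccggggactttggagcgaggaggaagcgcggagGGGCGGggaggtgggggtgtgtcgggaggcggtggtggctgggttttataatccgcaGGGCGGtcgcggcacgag
GGGCGG was searched on both strands of the 250 bases before each start. It was found in 7 of the 8 called genes that had a RefSeq window (Ace, Dpp7, Fam102b, Pid1, Rarres1, Tinagl1 and Twist2), in 70.0% of their 10 windows, and in 32.7% of all 32851 windows. The motifs and windows shown were chosen after their matches had been seen, and a match describes the letters only.

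Gsta3, an alpha-class glutathione S-transferase, read 7.997, 8.04 and 8.35 in sham and 8.24 to 9.41 (median 8.88) after irradiation, so 1 gamma array lay under the highest sham array. Its rise was 0.80 ± 0.16 (1.74-fold, adjusted p of 0.0470), with 0.52 after gamma rays, 1.14 after 30 cGy Si and 0.73 after 10 cGy Si. Rarres1, a retinoid-induced membrane protein, read 9.07, 8.84 and 8.69 in sham and 9.28 to 10.01 (median 9.54) in irradiated glands, with no overlap. It rose by 0.72 ± 0.15 (adjusted p of 0.0470), by 0.84 after either Si dose and 0.48 after gamma rays. Gsta3 was the only called gene among 21 antioxidant and glutathione enzymes. At an unadjusted p under 0.05, 3 of the 21 were higher (Gsta3, the heme oxygenase Hmox1 and the transferase Gsta4) and 1 lower (the quinone reductase Nqo1, -0.34 ± 0.16), with a list median of 0.17. Without sham replicate 3, 2 were higher and 2 lower. Over all genes tested, 6.90% were higher and 3.10% lower at that p with all arrays, and 4.72% and 5.17% without that array.

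Of the called genes, Zbtb16 and Twist2 encode transcription factors. Zbtb16 (PLZF), a zinc finger repressor induced by glucocorticoids, had the largest rise of the 10 called genes. Sham arrays read 7.74, 8.26 and 8.15 and irradiated arrays 8.26 to 9.94 (median 9.54), and the rise was 1.23 ± 0.25 (2.34-fold, adjusted p of 0.0470). By treatment, Zbtb16 differed from sham by 1.44 after gamma rays and 1.73 after 10 cGy Si, but by 0.52 ± 0.30 after 30 cGy Si. The test of a difference among the 3 irradiations gave an unadjusted p of 0.00114 and an adjusted p of 0.431. Twist2, a helix-loop-helix factor of mesenchymal cells, read 7.42, 7.21 and 7.25 in sham and 7.70 to 8.01 (median 7.88) after irradiation. It rose by 0.55 ± 0.11 (adjusted p of 0.0470), with 0.66, 0.56 and 0.44 after gamma rays, 30 cGy Si and 10 cGy Si.

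Dpp7 and Pid1 had the smallest p after Ace. Dpp7 had the narrowest spread of the 3 separate differences among the 10 called genes. This lysosomal dipeptidase read 7.22, 6.99 and 6.95 in sham and 7.50 to 7.80 (median 7.62) after irradiation, with differences of 0.59, 0.55 and 0.54 after gamma rays, 30 cGy Si and 10 cGy Si. The 95% interval of the difference between 30 and 10 cGy Si ran from -0.24 to 0.27, and that between 30 cGy Si and gamma rays from -0.29 to 0.21. Pid1, an adaptor protein that acts on insulin signalling in fat cells, read 7.35, 7.29 and 7.07 in sham and 7.48 to 8.16 (median 7.91) in irradiated glands, and rose by 0.65 ± 0.12 (adjusted p of 0.0364). Fam102b read 7.85, 7.80 and 7.55 in sham and 8.06 to 8.66 (median 8.25) after irradiation, a rise of 0.54 ± 0.10 (adjusted p of 0.0382). None of these 3 overlapped between groups. Clmp, an adhesion molecule of cell junctions, showed the smallest rise, 0.38 ± 0.08 (adjusted p of 0.0493). Its sham arrays read 7.76, 7.65 and 7.45 and its irradiated arrays 7.79 to 8.25 (median 7.97). The 10 cGy Si arrays of Clmp (7.79 to 7.86) lay just over the highest sham array, and 30 cGy Si exceeded 10 cGy Si by 0.34 (95% interval 0.14 to 0.54, adjusted p of 0.336).

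Next in line were Morc4, an ATPase of the MORC chromatin family, at 0.51 ± 0.11 (adjusted p of 0.0598) and Tppp3, a tubulin-binding protein. Tppp3 read 8.41, 8.16 and 8.06 in sham and 8.83 to 9.18 (median 9.02) after irradiation. Its nearest arrays were 0.42 apart, a wider gap than that of any of the 10 called genes, and its difference of 0.81 ± 0.18 had an adjusted p of 0.0859. The 3 irradiations gave 0.76, 0.81 and 0.86 for Tppp3, close to each other beside a standard error of 0.22.

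Cdkn1a, the p53 target that encodes the cell cycle inhibitor p21, had the widest gap of all named genes. It read 8.48, 8.30 and 8.19 in sham, and the irradiated arrays ran from 8.98 to 9.74 (median 9.38), 0.49 clear of the highest sham array. Its difference was 1.08 ± 0.25 (2.11-fold), with 0.99 after gamma rays, 1.15 after 30 cGy Si and 1.09 after 10 cGy Si. The smallest p that an exact permutation test can give with 3 of 12 arrays is 0.00909 (two-sided), and Cdkn1a reached it, as does any of the 402 genes whose groups do not overlap. Over all genes it did not pass, with a limma adjusted p of 0.151. Its level also varied widely in the sham arrays of weeks 4 and 12, from 7.42 to 9.21. The differences between irradiations were small and imprecise, with an interval of -0.47 to 0.80 for 30 cGy Si against gamma rays.

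The Cdkn1a promoter is shown because p53 is known to act on this gene. The 120 bases before one annotated start (RefSeq, GRCm38.p6, chr17:29090859-29090978, plus strand) hold the p53 half-site 2 times, in capitals, searched as the exact consensus on both strands.
Cdkn1a promoter: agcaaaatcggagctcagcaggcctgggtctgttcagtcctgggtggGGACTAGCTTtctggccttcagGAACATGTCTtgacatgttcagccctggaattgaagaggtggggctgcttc
Such a half-site was found in 7.13% of all promoter windows and, of the 8 called genes with a window, in that of Pid1. It was present in 1 of the 2 windows of Cdkn1a, and also in 2 windows of Hsph1, a chaperone gene described below.

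Among 34 p53 targets tested, 0 were called, 4 were higher at an unadjusted p under 0.05 (Cdkn1a, Eda2r, Psrc1 and Ccng1) and 0 lower, with a list median of 0.07. Over all genes tested, 6.90% were higher and 3.10% lower at that p, with a median of 0.01. Eda2r, a membrane receptor, read 4.30, 4.55 and 4.19 in sham and 4.57 to 5.64 (median 4.70) in irradiated arrays, with no overlap. Its difference was 0.50 ± 0.17 (limma adjusted p of 0.333), with 0.84 after gamma rays, 0.39 after 30 cGy Si and 0.27 after 10 cGy Si. Ccng1, a cyclin induced by p53, differed by 0.25 ± 0.12. Mdm2, the ligase that degrades p53, differed by 0.08 ± 0.09, and Phlda3, an inhibitor of Akt, by -0.09 ± 0.24. Genes of DNA break repair (1 of 25 higher at an unadjusted p under 0.05, Lig4; median -0.01) and of cell cycle and mitosis (0 of 19 in either direction; median -0.06) lay near the background. Without sham replicate 3 the cell cycle median was 0.22.

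**Figure D2:**
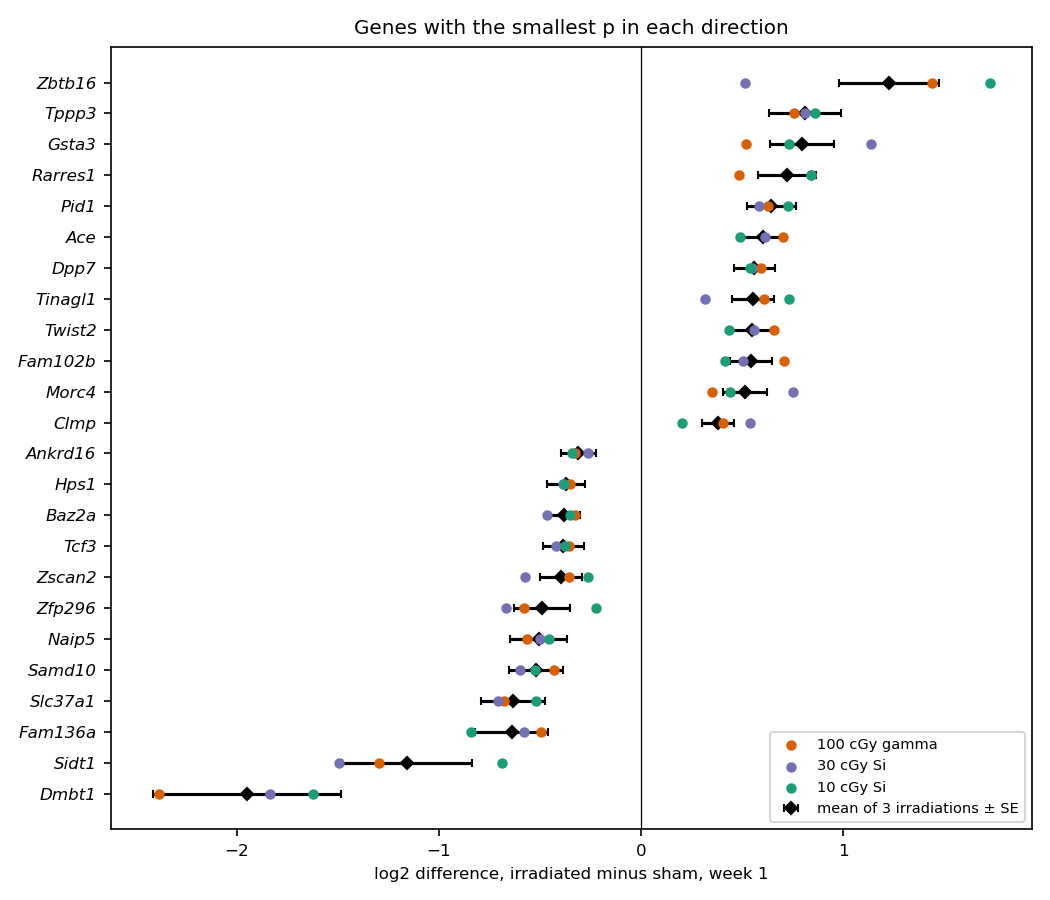
Log2 difference from sham at week 1 (horizontal axis) of the 12 genes with the smallest p in each direction, with the mean of the 3 irradiations as a diamond with its SE and each irradiation as a coloured point. Dpp7 and Tppp3 points nearly coincide, whereas those of Zbtb16 run from 0.52 to 1.73.

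No gene fell past the threshold. Baz2a was called lower under some other settings, alone or with others: with quantile normalization (3 higher and 1 lower called), with the filter at the 50th percentile (11 and 1), with trend and robust settings (10 and 1) and with array weights (136 and 81). Lower calls without Baz2a came with 4 tissue covariates (6 and 2, Slc37a1 among the lower) and without sham replicate 1 (11 and 2, Dmbt1 and Zfp296 being lower). The week 1 arrays alone with 4 group means gave 4 and 1. The 12 genes with the smallest p on the lower side differed by -0.31 (Ankrd16) to -1.95 (Dmbt1), with adjusted p of 0.0588 to 0.212, and those described below include 4 of them and Tet3, which had one of the widest gaps. Baz2a, a subunit of the complex that silences ribosomal RNA genes, came nearest. It read 8.46, 8.53 and 8.41 in sham and 7.92 to 8.25 (median 8.09) after irradiation, with no overlap, a difference of -0.38 ± 0.08 and an adjusted p of 0.0588. Slc37a1, a sugar phosphate transporter, read 6.55, 6.52 and 6.50 in sham and 5.70 to 6.22 (median 5.83) in irradiated glands. Its difference was -0.64 ± 0.16 (adjusted p of 0.180), and its gap of 0.28 was the widest of the named genes on this side. Tcf3, an E protein of the helix-loop-helix family, read 7.39, 7.45 and 7.42 in sham and 6.82 to 7.29 (median 6.97) after irradiation, and Tet3, which oxidizes methylated cytosine, read 7.66, 7.64 and 7.66 in sham and 7.08 to 7.47 (median 7.35). In both, the sham arrays were nearly equal and all irradiated arrays lay under them. Their differences were -0.39 ± 0.10 (adjusted p of 0.180) and -0.35 ± 0.13 (adjusted p of 0.354). A second probe set of Tet3, at a mean level of 6.81, gave a smaller difference of -0.21. The largest value was that of Dmbt1, a secreted scavenger receptor of epithelia, at -1.95 ± 0.47 (adjusted p of 0.161), but its sham arrays ranged from 5.67 to 8.33 and 1 irradiated array, at 5.94, lay within them.

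The irradiations were then set against each other without the sham arrays. By limma's F test, 3 genes differed among them (0.0228% of genes tested), the chaperone genes Hsph1 and Hspb1 (adjusted p of 0.0223 each) and the p53 target Psrc1 (adjusted p of 0.0293). Hsph1, a partner of Hsp70, read 8.04, 9.18 and 8.62 after 10 cGy Si, 7.41, 7.25 and 7.28 after gamma rays, 7.07, 7.29 and 7.06 after 30 cGy Si and 6.67, 6.77 and 7.41 in sham. The 3 arrays of 10 cGy Si exceeded all others. The difference of Hsph1 between 30 and 10 cGy Si was -1.47 (95% interval -1.99 to -0.96, adjusted p of 0.0169), and that between 30 cGy Si and gamma rays was -0.17 (-0.69 to 0.34). Hspb1, a small heat shock protein, read 10.04, 11.19 and 10.90 after 10 cGy Si, 9.69, 9.94 and 9.82 after gamma rays, 9.40, 9.67 and 9.66 after 30 cGy Si and 9.34, 9.67 and 9.13 in sham. Its difference between 30 and 10 cGy Si was -1.14 (95% interval -1.52 to -0.75, adjusted p of 0.0169). A second probe set of Hspb1 gave a pooled difference of 0.66 beside 0.65 for the one used, and another, at a low mean level of 3.38, gave -0.11. With the mean of these probe sets the F test of Hspb1 had an adjusted p of 0.103. Between 30 and 10 cGy Si, 7 genes were called in all (0.0531%), among them Banp, P4ha1 and Arhgap18, and between either Si dose and gamma rays 0 were (583 and 518 at an unadjusted p under 0.05, limma).

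Psrc1, a spindle protein, was high in gamma arrays alone among the 12. It read 5.62, 6.89 and 5.65 there, 4.96, 5.14 and 4.74 after 30 cGy Si, 5.17, 4.63 and 4.58 after 10 cGy Si and 4.94, 4.76 and 4.62 in sham. Its pooled difference of 0.49 ± 0.18 therefore averaged 1.28 after gamma rays with 0.17 and 0.02 after the 2 Si doses. In the pairwise tests Psrc1 did not pass, with adjusted p of 0.445 for 30 cGy Si and 0.0675 for 10 cGy Si against gamma rays. The calls among irradiations depended on single arrays. Leaving out 10 cGy Si replicate 2 or 3, or 30 cGy Si replicate 1 or 3, left 0 genes called, with adjusted p of Hsph1 at 0.444, 0.191, 0.0907 and 0.0716, of Hspb1 at 0.444, 0.316, 0.0944 and 0.0716, and of Psrc1 at 0.376, 0.191, 0.0907 and 0.0716. Without gamma replicate 2, Psrc1 was at 0.275 while Hsph1 and Hspb1 stayed at 0.0485, and without 10 cGy Si replicate 1, 10 genes were called. Fitted on the 12 week 1 arrays alone, 0 genes were called.

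**Figure D3:**
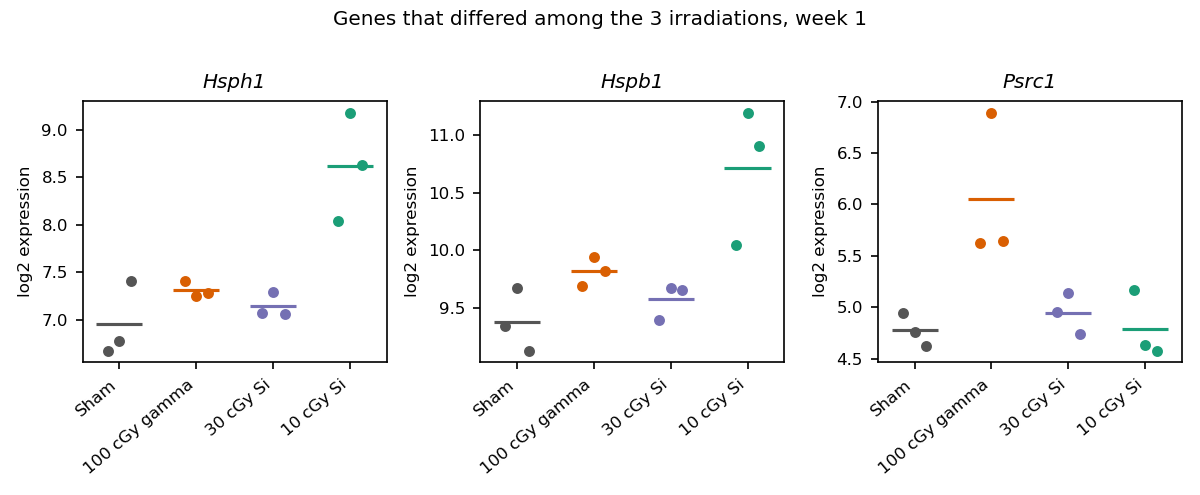
Log2 expression (vertical axis) of the 3 genes that differed among irradiations at week 1, by treatment; points are arrays and lines are group means. Hsph1 and Hspb1 are high in the 3 arrays of 10 cGy Si and Psrc1 in the 3 gamma arrays, 1 of which, at 6.89, lies well above the other two.

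Promoters of both chaperone genes are shown because heat shock factor is known to bind inverted GAA units. Each is the 120 bases before an annotated start (RefSeq, GRCm38.p6), Hspb1 at chr5:135887799-135887918 on the plus strand and Hsph1 at chr5:149636337-149636456 on the minus strand, with GAANNTTC or TTCNNGAA in capitals.
Hspb1 promoter: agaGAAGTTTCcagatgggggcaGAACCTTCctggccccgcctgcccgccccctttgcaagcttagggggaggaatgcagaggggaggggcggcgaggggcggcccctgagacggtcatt
Hsph1 promoter: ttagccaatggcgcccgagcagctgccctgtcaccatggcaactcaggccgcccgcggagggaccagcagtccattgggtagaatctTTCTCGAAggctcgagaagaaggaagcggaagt
Either form was found in 12.8% of all promoter windows, and in 1 of the 8 called genes with a window, Tinagl1.

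Lists of stress genes had more members higher than lower in the pooled comparison, with Zbtb16 as their only called member. Of 16 cytosolic heat shock chaperones and co-chaperones, 8 were higher at an unadjusted p under 0.05 and 0 lower, 15 lay above 0 (53.3% of all genes did), and the median difference was 0.32. At that p, 6.90% of all genes tested were higher and 3.10% lower. By treatment the chaperone median was 0.16 after gamma rays, 0.18 after 30 cGy Si and 0.48 after 10 cGy Si. Hsp90aa1, the inducible Hsp90, read 9.03, 9.14 and 9.14 in sham and 9.18 to 10.20 (median 9.40) after irradiation, with no overlap but a nearest gap of only 0.04. Its means were 9.29 after gamma rays, 9.31 after 30 cGy Si and 9.89 after 10 cGy Si, against 9.11 in sham. Among 19 genes of endoplasmic reticulum stress, 8 were higher and 0 lower with a median of 0.20. Their medians were 0.12 after gamma rays, 0.17 after 30 cGy Si and 0.27 after 10 cGy Si. Hspa5 (BiP), the main chaperone of that compartment, read 9.85, 9.82 and 9.75 in sham and 9.98 to 10.64 (median 10.11) after irradiation, a difference of 0.39 ± 0.14 (adjusted p of 0.353).

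Glucocorticoid-induced genes had 8 of 20 members higher and 0 lower, beside 6.90% and 3.10% of all genes, with 1 called (Zbtb16) and a median of 0.26. By treatment that median was 0.28 after gamma rays, 0.21 after 30 cGy Si and 0.39 after 10 cGy Si. Tsc22d3 (GILZ) read 8.01, 7.68 and 7.89 in sham and 8.04 to 9.04 (median 8.19) after irradiation, with no overlap and a difference of 0.49 ± 0.13 (adjusted p of 0.187). Its means were 8.24 after gamma rays, 8.08 after 30 cGy Si and 8.75 after 10 cGy Si, against 7.86 in sham. Fkbp5, a co-chaperone of the glucocorticoid receptor, overlapped, at 6.38, 7.27 and 7.29 in sham and 6.75 to 8.32 (median 7.44) after irradiation. Without sham replicate 3 the median of this list was 0.10 and 4 members were higher, where 4.72% of all genes were higher and 5.17% lower. The heat shock list kept a median of 0.33 with 7 members higher, and the endoplasmic reticulum list 0.18 with 5.

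Lists of 2 resident immune cell types, macrophages and mast cells, also had more members higher than lower. Of 16 macrophage genes, 7 were higher at an unadjusted p under 0.05, 0 lower and 0 called, with a median of 0.41. At that p, 6.90% of all genes tested were higher and 3.10% lower, and 4.72% and 5.17% without sham replicate 3. C1qb, a complement subunit made by macrophages, read 9.72, 9.73 and 9.45 in sham and 9.91 to 11.03 (median 10.23) after irradiation, without overlap, and Cd163, the haemoglobin scavenger receptor, read 7.39, 6.80 and 6.10 in sham and 7.10 to 7.79 (median 7.46). Sham replicate 3 was the lowest array for both. Of the 7 sham arrays of later weeks, 6 lay above all week 1 sham arrays for C1qb and 6 for Cd163. Below all irradiated week 1 arrays lay 2 of the 7 for C1qb and 0 for Cd163. Macrophage markers averaged 7.64 to 8.20 in sham and 7.91 to 8.83 in irradiated arrays. Without sham replicate 3 the macrophage median was 0.38, 2 members were higher and 1 lower.

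The mast cell list had 7 of 9 members higher, 1 lower (Kit, which ducts also express) and a median of 0.35, beside 6.90% and 3.10% of all genes. Cpa3, the mast cell carboxypeptidase, read 7.97, 7.69 and 7.32 in sham and 7.85 to 9.09 (median 8.46) after irradiation. Hdc, which makes histamine, read 5.81, 6.10 and 5.61 in sham and 6.20 to 6.86 (median 6.48), and only Hdc of this pair did not overlap. Their differences were 0.92 ± 0.24 and 0.64 ± 0.17, each with an adjusted p of 0.180. For Cpa3 and Mcpt4, another member, all 7 sham arrays of later weeks lay above the week 1 sham arrays. For these genes 0 of the 7 lay below all irradiated week 1 arrays. Hdc differed, with 3 of the 7 above the week 1 sham arrays and 5 below all irradiated week 1 arrays. Without sham replicate 3 the mast cell median was 0.25 with 4 members higher and 1 lower. The part of the tissue mix in the values of these lists was not tested.

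**Figure D4:**
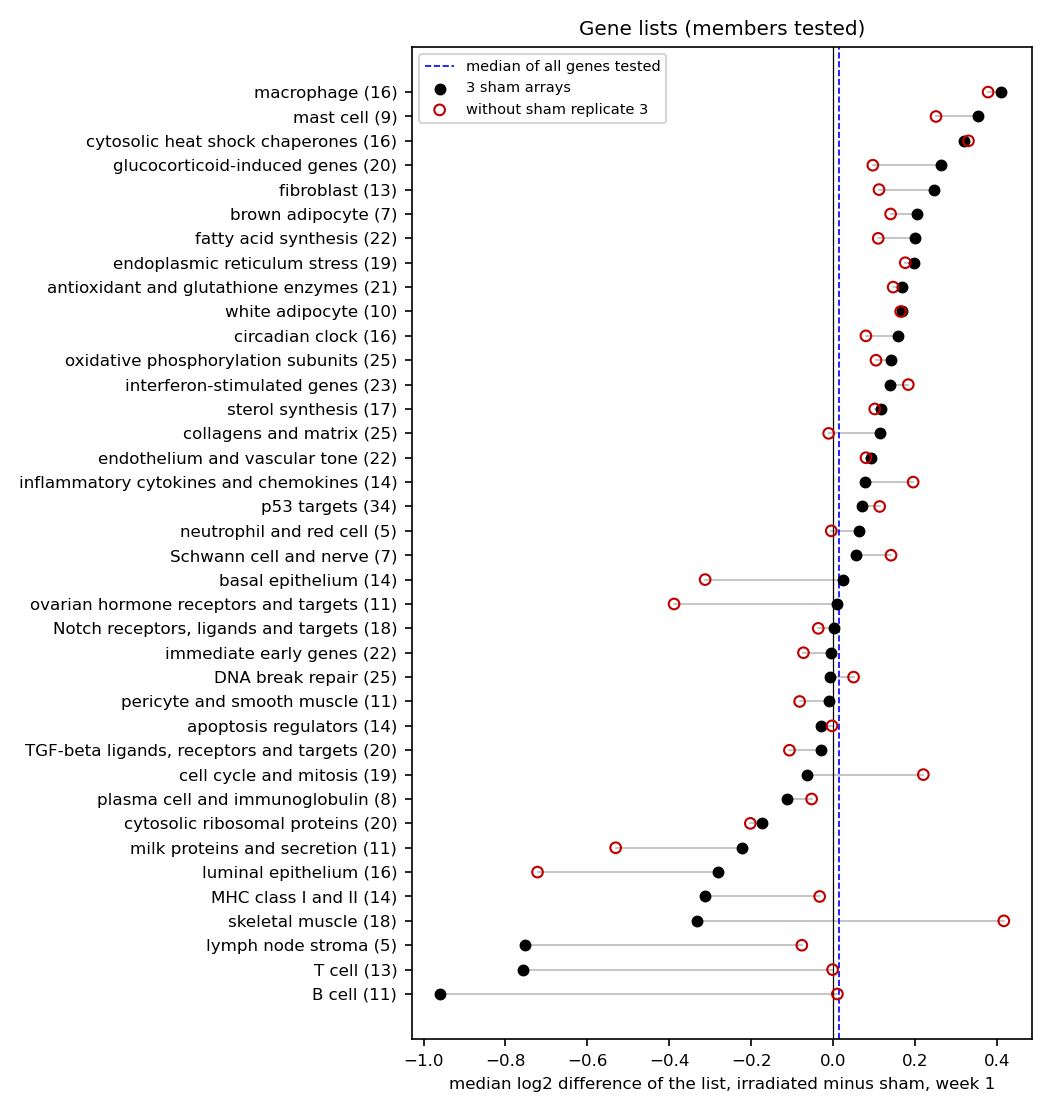
Median log2 difference from sham at week 1 (horizontal axis) of each gene list, with the number of members tested in brackets; filled points use 3 sham arrays and open points leave out sham replicate 3. Macrophage and heat shock medians hardly move, whereas that of T cells goes from -0.76 to 0.00 and that of luminal epithelium from -0.28 to -0.72.

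Other tissue lists depended on sham replicate 3. T cell, B cell and lymph node stroma genes had medians of -0.76, -0.96 and -0.75 with all 3 sham arrays and 0.00, 0.01 and -0.08 without that array, and 0 members had an unadjusted p under 0.05 either way. Luminal epithelial genes went the other way. With 3 sham arrays 1 of 16 was lower at an unadjusted p under 0.05 (Kit) and the median was -0.28, and without sham replicate 3, 11 of 16 were lower with a median of -0.72. Krt18, a keratin of luminal cells, read 10.22, 10.03 and 9.00 in sham and 9.07 to 9.54 (median 9.36) after irradiation, so the irradiated arrays lay between sham replicate 3 and the other two. Gata3, a factor of luminal cells, read 9.85, 10.05 and 8.72 in sham and 8.68 to 9.32 (median 8.84). Ribosomal protein genes were slightly low, with 1 of 20 above 0, 3 lower at an unadjusted p under 0.05 (Rpl5, Rpl11 and Rplp0) and a median of -0.17, which was -0.20 without that array. Over all genes tested, 53.3% lay above 0. At that p, 3.10% of them were lower with all arrays and 5.17% without sham replicate 3.

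The count of 10 called genes rested on few arrays. Leaving out 1 array at a time gave 0 to 13 calls by limma, with 0 without gamma replicate 2 or 3, 30 cGy Si replicate 1, 10 cGy Si replicate 3 or sham replicate 2 or 3 (1183, 1102, 1168, 1235, 1264 and 1303 genes at an unadjusted p under 0.05, beside 1317 with all arrays). There was 1 call without 30 cGy Si replicate 2, there were 2 without 10 cGy Si replicate 2, 7 without 10 cGy Si replicate 1, 8 without gamma replicate 1 or 30 cGy Si replicate 3, and 13 without sham replicate 1. Ace stayed called in 6 of the 12 fits, Dpp7 in 5, Tinagl1, Pid1 and Fam102b in 4, Rarres1 in 3, Gsta3 and Clmp in 2, and Zbtb16 and Twist2 in 0. The size of the differences moved less: Ace ranged from 0.51 to 0.66, Zbtb16 from 1.07 to 1.33 and Cdkn1a from 1.01 to 1.16, and none of the 10 changed sign. With no filter on low genes, or with T and B cell markers as a covariate, limma called 0 genes (smallest adjusted p of 0.0519 and 0.0594, with 1474 and 1266 genes at an unadjusted p under 0.05). Fitted on the week 1 arrays alone with 4 group means, limma called 5 genes, of which only Twist2 and Zbtb16 were among the 10. With 2 groups it called 1 gene, Tppp3.

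At weeks 4 and 12 the same pooled comparison called 0 genes by limma (0% each; 768 and 583 at an unadjusted p under 0.05). Ace differed by -0.01 ± 0.09 at week 4 and -0.05 ± 0.10 at week 12, and Zbtb16 by -0.12 ± 0.22 and -0.24 ± 0.25. Tinagl1 was at 0.30 ± 0.09 at week 4, with an unadjusted p of 0.00335, and at -0.13 ± 0.10 at week 12. Cdkn1a was at 0.36 ± 0.23 and -0.04 ± 0.25. A test of whether the effect differed between weeks called 0 genes (0%; 779 at an unadjusted p under 0.05), with the smallest adjusted p, 0.0619, for Tsc22d3 and 0.412 for Ace. At week 12 all irradiated arrays of Tsc22d3 (7.02 to 7.44) lay below its sham arrays (7.77 to 8.08), opposite to week 1. The median of the glucocorticoid list was 0.15 at week 4 and -0.25 at week 12.

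**Figure D5:**
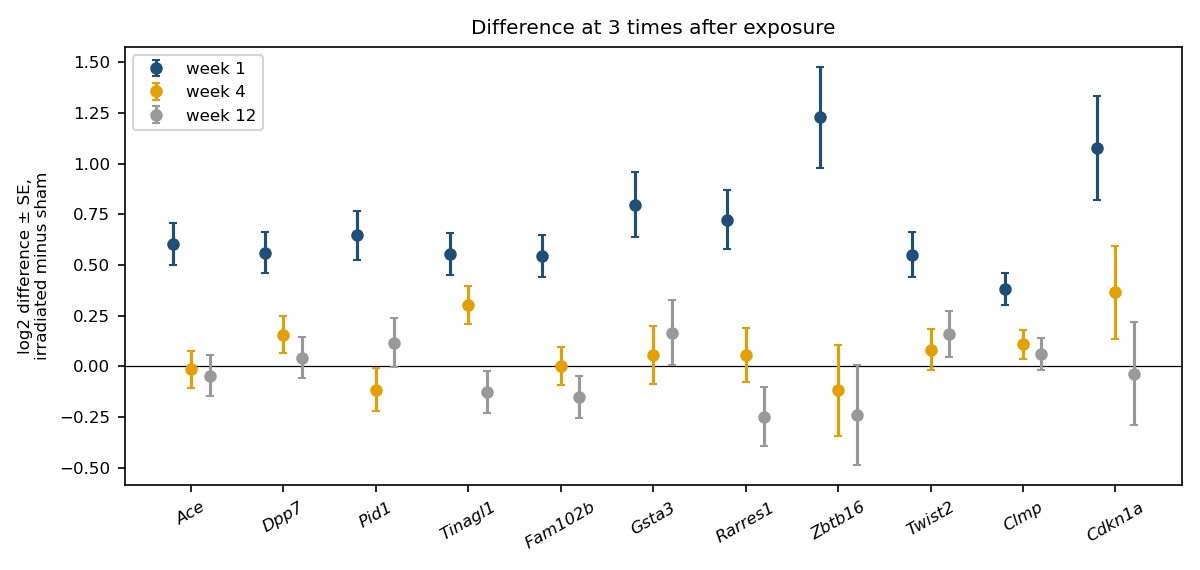
Pooled log2 difference from sham (vertical axis, ± SE) of the 10 called genes and Cdkn1a at weeks 1, 4 and 12. Points of weeks 4 and 12 lie near 0 for most genes, with Tinagl1 at 0.30 in week 4, and the difference between weeks passed the threshold for none.

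The sham arrays of weeks 4 and 12 (7 arrays) give a second view of the sham level, with the limit that week and place differ. For Gsta3 all 7 (8.44 to 9.06) lay within the range of the irradiated week 1 arrays and above all 3 sham arrays of week 1. Rarres1 had 5 of 7 within that range and Clmp 6, and all 7 later sham arrays of Rarres1 and 6 of those of Ace, Dpp7, Pid1, Fam102b and Clmp lay above the week 1 sham arrays. These genes were picked by their rise over the same week 1 sham arrays, which favours genes in which those arrays happened to be low. How often later sham arrays lay above them over all genes tested was not counted, and the cause was not tested. For Twist2 and Tppp3, all 9 irradiated arrays of week 1 exceeded all 10 sham arrays of any week. The highest of the 10 read 7.58 for Twist2 and 8.41 for Tppp3. For Tinagl1 and Cdkn1a, 6 of the 7 later sham arrays lay below all irradiated week 1 arrays.

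Of the 321 genes whose irradiated arrays lay above the week 1 sham arrays, 33 also lay above all later sham arrays, and in 45 the week 1 sham arrays lay below every later sham array. The 33 included Tppp3, the factor Rfx2, the actin regulator Coro2b, Septin8, the co-chaperone Bag3, Pdgfb and the caveolar coat gene Cav1. Of the 81 genes on the lower side, 2 (Parp2, a DNA strand break sensor, and the initiation factor subunit Eif3e) lay below all 10 sham arrays, and in 26 the week 1 sham arrays lay above every later one. How often week 1 sham arrays lay below or above every later one over all genes tested was not counted. The counts of 45 and 26 therefore have no background beside them. Baz2a, Slc37a1, Tcf3 and Tet3 all had their 7 later sham arrays below the 3 of week 1.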

How the data were processed

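Total RNA of mammary glands was hybridised to 37 Affymetrix arrays. The deposited values were log2 expression levels, which the authors made with RMA in oligo, per the submitters' processing notes. The versions of both are not given in the sources used here. There were 35556 probe sets. Of these, 21218 had 1 gene symbol in the platform annotation, 1881 had several and 12457 were not listed. The probe set with the highest mean over all arrays stood for a gene, and genes with a mean above the 30th percentile (log2 4.04) were tested. A limma model (version 3.58.1, R 4.3.3) with a mean for each of 12 groups was fitted to all arrays, with 25 residual degrees of freedom, and was tested on simulated data. Tests were two-sided, and Benjamini-Hochberg adjustment ran over 13174 genes. The number of arrays limits the precision.

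The pooled contrast was the mean of the 3 irradiated groups minus sham. Named genes were up to 12 per direction by call and then by p, the 4 widest gaps per direction, the smallest p of each F test, up to 4 members of a list and 7 followed genes. Predicted genes and small RNAs were passed over. The comparison, the 38 gene lists and the rules were chosen with earlier results of these data known. Of 706 list entries, 611 were tested. The sets of later sham arrays were examined after the week 1 values had been seen.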

Additional observations from a re-analysis of the deposited data

Results flagged for a closer look

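Among 49 genes checked over the 9 irradiated arrays of week 1, 2 had an array set far from the rest by Dixon's criterion, which chance meets in about 1 of 20 groups. Eda2r read 5.643 in gamma replicate 3, and the next array read 4.964. Psrc1 read 6.892 in gamma replicate 2, and the next array read 5.646. The effect of irradiation differed between treatments for Hspb1 (limma F test, adjusted p of 0.0223), Hsph1 (0.0223) and Psrc1 (0.0293).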

How the results depend on the processing

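Leaving out 1 array at a time gave 0 to 13 genes called in the pooled comparison and 0 to 13 alike in all 3 irradiations, 0 to 5 after gamma rays, 0 to 6 after 30 cGy Si, 1 to 20 after 10 cGy Si, 0 to 10 among irradiations, 0 to 1 between weeks and 428 to 1315 genes without overlap (402 with all arrays). With array weights the counts were 217, 192, 37, 410, 88 and 75 in the order pooled, alike, gamma, 30 cGy Si, 10 cGy Si and among irradiations. With no filter the pooled and alike counts were 0 (1474 genes at an unadjusted p under 0.05, limma) and the week 4 count was 1. With the filter at the 50th percentile, 30 cGy Si gave 10 and the test between weeks 1. Quantile normalization gave 4 pooled, 4 alike and 7 after 30 cGy Si. Trend and robust settings gave 5 after 30 cGy Si and 1 between weeks. On the week 1 arrays alone, with 4 group means, there were 5 pooled and 5 alike. Of the 5 pooled, 2 (Twist2 and Zbtb16) were among the 10. The same fit gave 1 after 30 cGy Si, 1 after 10 cGy Si and 0 among irradiations. With 2 groups there was 1 pooled (Tppp3), not among the 10. With 4 tissue covariates there were 8 pooled, 4 of them among the 10 (Ace, Dpp7, Gsta3 and Tinagl1), 1 after gamma rays and 0 after 30 cGy Si. With T and B cell markers as a covariate there were 0 pooled (1266 at an unadjusted p under 0.05), 0 alike and 1 after 30 cGy Si. The cause was not tested. The pooled difference of Arhgap18, -0.04 with all arrays, ran from -0.11 to 0.0016 as single arrays were left out, and it changed sign without sham replicate 2.

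The labels do not say that replicate numbers pair samples. Deviations correlated over 0.1 in 11 of 18 same-numbered pairs of week 1 arrays (median 0.20) and in 9 of 36 others (median -0.14), and 8 of 12 arrays correlated best with their own number, a hint of pairing that not every pair showed. With the replicate block, 8 genes were called in the pooled comparison, 7 of them shared with the 10 (not Tinagl1, Fam102b and Twist2), 5 after 30 cGy Si and 2 among irradiations, where Psrc1 had an adjusted p of 0.0512.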

Other observations

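Single genes of lists not described above had small p without a call at week 1. Ccl11 (eotaxin), which attracts eosinophils, read 8.65, 8.003 and 8.38 in sham and 8.73 to 9.21 (median 8.98) in irradiated arrays, with no overlap and a difference of 0.62 ± 0.15 (limma adjusted p of 0.161). It was the only one of 14 inflammatory cytokines and chemokines at an unadjusted p under 0.05. Klf4, a zinc finger factor of the immediate early list, read 7.36, 7.26 and 7.26 in sham and 7.30 to 8.17 (median 7.89), a difference of 0.54 ± 0.13 (adjusted p of 0.171). Its list had 3 of 22 members higher and 3 lower, among them Egr3 at -0.51 ± 0.21 and Ier2 at -0.47 ± 0.19. Gbp2, an interferon-induced GTPase, read 7.07, 7.04 and 7.51 in sham and 7.48 to 8.01 (median 7.61), and was the only one of 23 interferon-stimulated genes past that p, with a list median of 0.14. Fibroblast genes had 4 of 13 members higher (Mfap5, Clec3b, Dpt and Dcn), and 0 without sham replicate 3. Over all genes tested, 6.90% were higher and 3.10% lower at that p, and 4.72% were higher without that array.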
